A study of Mus musculus with 6 samples.

Results

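Regulators of circular RNA formation were examined as 8 genes, Qk, Mbnl1, Mbnl2, Hnrnpl, Ilf2, Adar, Adarb1 and Dhx9, which encode RNA-binding proteins and editing enzymes that promote or block back-splicing. They were taken by their symbols from the deposited count tables, in which all 8 of 8 were found among 42396 listed genes. All 8 were also among the 17439 genes that passed the filter on low counts. The rule for the genes is their function and uses no measured value, but they were proposed with earlier results of these data known.

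The data are RNA sequencing of 6 libraries from primary cultures of the ventral midbrain of wild-type mouse embryos at embryonic day 14, infected on the day of plating with lentivirus at a multiplicity of infection of 5 and collected after 3 days in vitro. In 3 control libraries the virus was pll3.7-Scr2, which expresses a scramble hairpin, and in 3 knockdown libraries it was pll3.7-shRmstI, aimed at circRmst, a circular RNA of the gene Rmst. Both groups therefore carried the lentivirus, and wells were pooled within a condition, per the labels' protocols. The labels give 3 independent cultures and do not say which libraries share one, so the spread between libraries of a group may in part be technical.

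A circular RNA arises when the splicing machinery joins the end of an exon to the start of the same or an earlier exon, an event called back-splicing. It is favoured when the flanking introns are brought together, either by complementary repeats that pair with each other or by RNA-binding proteins that hold both introns. Proteins that unwind or edit such paired repeats act against it. Circular RNAs are abundant in neurons, where they persist because they have no free ends for exonucleases.

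Sequences before annotated transcription starts were available from RefSeq (GRCm38.p6) for all 8 genes, at 11 starts in all. Those shown are the 250 bases before start 1 of Mbnl1 and the start of Mbnl2, a pair of related genes whose levels were high in the same libraries, and before starts 1 and 3 of the 3 starts of Adar, whose gene-level count adds the transcripts of every start. Capitals mark matches on either strand to GGGCGG, the GC box, to CCAAT, or to TATAAA.
Mbnl1, start 1, plus strand, chr3:60472580-60472829: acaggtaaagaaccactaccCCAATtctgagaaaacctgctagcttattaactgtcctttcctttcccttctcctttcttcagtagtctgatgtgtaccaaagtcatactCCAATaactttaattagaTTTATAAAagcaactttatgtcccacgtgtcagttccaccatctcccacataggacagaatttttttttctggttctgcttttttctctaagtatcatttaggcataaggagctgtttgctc
Mbnl2, plus strand, chr14:120275419-120275668: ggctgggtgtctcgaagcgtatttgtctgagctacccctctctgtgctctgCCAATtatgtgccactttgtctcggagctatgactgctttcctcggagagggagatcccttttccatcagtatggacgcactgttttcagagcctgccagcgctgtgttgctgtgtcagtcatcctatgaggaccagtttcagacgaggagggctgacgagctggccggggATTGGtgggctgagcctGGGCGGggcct
Adar, start 1, plus strand, chr3:89714772-89715021: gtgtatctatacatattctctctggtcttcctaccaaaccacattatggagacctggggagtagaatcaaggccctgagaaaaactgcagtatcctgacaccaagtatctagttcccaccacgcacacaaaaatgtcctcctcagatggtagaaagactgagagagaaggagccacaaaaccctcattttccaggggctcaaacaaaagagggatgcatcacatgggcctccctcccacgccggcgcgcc
Adar, start 3, plus strand, chr3:89730468-89730717: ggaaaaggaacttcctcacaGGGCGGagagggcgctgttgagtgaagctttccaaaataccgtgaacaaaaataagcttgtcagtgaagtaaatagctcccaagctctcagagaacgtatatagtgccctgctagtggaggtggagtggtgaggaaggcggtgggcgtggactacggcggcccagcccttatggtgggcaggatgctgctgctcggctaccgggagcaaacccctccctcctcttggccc
The window before start 1 of Mbnl1 held 2 matches to CCAAT, 2 overlapping matches to TATAAA on opposite strands and 0 to GGGCGG, at 38.0% G and C. Mbnl1 has 2 annotated starts, and the window before start 2, chr3:60500929-60501178, overlaps annotated exons and is not printed. It held 4 matches to GGGCGG and 0 to CCAAT or TATAAA, at 73.6% G and C. That of Mbnl2 held 2 matches to CCAAT and 1 to GGGCGG, at 57.2% G and C. Of 32851 windows of the same length, 33.85% held CCAAT, 32.74% held GGGCGG and 12.37% held TATAAA. The letters GAAA, any 2 bases and GAAA, the core of the element through which interferon acts on promoters, were searched for because one form of the Adar protein is made from an interferon-inducible promoter. They had 0 matches in the 11 windows of the 8 genes and stood in 2.98% of all windows. A match is a description of letters, and its absence says only that they are not in this window.

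The libraries held between 27248934 and 43646521 counts. Levels of circRmst were not analysed here, and a gene-level count of Rmst adds its linear and circular transcripts, so it does not check the knockdown. Rmst averaged 118 ± 4.85 in controls against 106 ± 9.02 in knockdowns (CPM, counts scaled to library size times a TMM factor per library, SD, n = 3 per group). The TMM factors ran from 0.977 to 1.03. The labels name the cells as dopamine neurons. Markers of dopamine neurons summed to between 519 and 635 CPM (10 genes), of neurons in general to between 6148 and 7282 CPM (12 genes), of astrocytes and radial glia to between 1827 and 2204 CPM (12 genes) and of the oligodendrocyte lineage to between 430 and 688 CPM (12 genes), so the cultures held other cells besides dopamine neurons.

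None of the 8 genes differed between knockdown and control at the threshold. In edgeR's quasi-likelihood test 0 of 8 had an adjusted p under 0.05, and 0 of 8 had an unadjusted p under 0.05. Over all 17439 genes tested, 0% were higher and 0% were lower at the adjusted threshold, and 1.10% had an unadjusted p under 0.05. DESeq2 and limma voom also called 0 of the 8, with 0 at an unadjusted p under 0.05 in each. The libraries of the groups overlapped in all 8 genes, where 5.20% of all tested genes had groups that did not overlap. Of the 8 genes, 5 lay below the control and 3 above, with a median log2 fold change of -0.02, beside 51.9% below and a median of -0.00604 over all tested genes.

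The intervals bound these differences. The 95% interval of the fold change lay within 1.5-fold in either direction for 8 of 8 genes, where 65.0% of all tested genes had such an interval. That share includes genes at low levels, while each of the 8 averaged 27.3 CPM or more, so it is not matched for level. For the 10270 genes averaging 10 CPM or more, intervals extended by a median of 0.26 to either side of the log2 estimate. The share of those genes bounded within 1.5-fold was not examined.

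**Figure D1:**
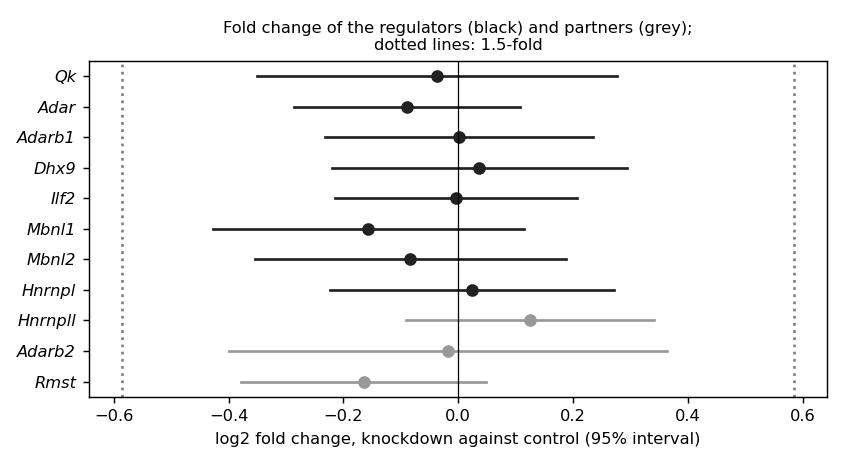
Log2 fold change of knockdown against control for the 8 regulators (black) and for Hnrnpll, Adarb2 and Rmst (grey), with points for the estimate of edgeR, lines for the 95% interval and dotted lines at 1.5-fold. Every interval crosses 0, and those of the 8 regulators stay inside the dotted lines, the widest reach being that of Mbnl1 at -0.43.

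Of the proteins that promote back-splicing, Quaking, the product of Qk, is a STAR-family protein that binds introns on both sides of an exon. It is also known for splicing and stability of myelin messenger RNAs in glia. Qk lies on chromosome 17 from 10206471 to 10319361 (GRCm38, minus strand), with a span of 112.9 kb. Levels are given as CPM, the count scaled to library size times the TMM factor, always in the order of replicates 1, 2 and 3. Qk was at 440, 308 and 358 CPM across the controls and at 337, 326 and 417 CPM across the knockdowns. The highest and the lowest library were thus both controls, and the knockdown lay between them. Qk had a log2 fold change of -0.04 ± 0.14 (SE), with a 95% interval from -0.35 to 0.28 (edgeR adjusted p = 1.00). In folds the interval ran from 0.785 to 1.21.

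Muscleblind-like proteins bind pyrimidine-rich elements with a GC core and switch exons and polyadenylation sites as neurons mature, and the fly protein promotes a circle from its own gene. Mbnl1 lies on chromosome 3 from 60472559 to 60629750 (plus strand, 157.2 kb). Its level was 70.7, 57.2 and 62.6 CPM across the controls and 52.1, 53.2 and 65.5 CPM across the knockdowns. Knockdown replicates 1 and 2 were the lowest 2 libraries, while knockdown replicate 3 was above control replicates 2 and 3. The log2 fold change, the furthest from 0 of the 8, was -0.16 ± 0.12 (SE), with an interval from -0.43 to 0.11 and an unadjusted p of 0.229 (edgeR adjusted p = 1.00). Without knockdown replicate 3 it was -0.26 and without control replicate 1 it was -0.07, with unadjusted p of 0.0538 and 0.604 in edgeR, so its size rested on these libraries.

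Mbnl2, the paralogue that takes the larger part in adult brain, lies on chromosome 14 from 120275652 to 120431698 (plus strand, 156.0 kb). Its level was 29.4, 25.9 and 28.9 CPM across the controls and 23.2, 26.5 and 29.8 CPM across the knockdowns. Both the lowest and the highest library were knockdowns. The log2 fold change was -0.08 ± 0.12 (SE), with an interval from -0.35 to 0.19 (edgeR adjusted p = 1.00), and without knockdown replicate 1 it was 0.00412. Mbnl3, the third gene of the family, was close to the limit of detection, with 22 to 59 counts in the control libraries and 28 to 61 in the knockdown libraries. The ratio of Mbnl2 to Mbnl1 per length was 0.498, 0.534 and 0.537 across the controls and 0.535, 0.625 and 0.535 across the knockdowns. The groups overlapped, and the difference of the mean log2 ratio was 0.11 (exact permutation test, two-sided p = 0.3, adjusted over 3 ratios of partner genes 0.6, smallest possible p 0.1).

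Hnrnpl encodes a nuclear ribonucleoprotein that binds CA-rich stretches and acts on both linear and circular splicing. It lies on chromosome 7 from 28808546 to 28822268 (plus strand, 13.7 kb). Its level was 354, 417 and 398 CPM across the controls and 399, 440 and 350.0 CPM across the knockdowns. The lowest 2 libraries were 1 control and 1 knockdown, and the groups overlapped. Hnrnpl had a log2 fold change of 0.02 ± 0.11 (SE), with an interval from -0.22 to 0.27 (edgeR adjusted p = 1.00). Its paralogue Hnrnpll averaged 79.2 ± 6.98 in controls against 86.4 ± 3.95 in knockdowns (CPM, SD, n = 3 per group), a log2 fold change of 0.13 ± 0.10 (SE).

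Ilf2 encodes NF45, a subunit of a nuclear complex that binds double-stranded RNA. It lies on chromosome 3 from 90476201 to 90488379 (plus strand, 12.2 kb). Its level was 125, 127 and 132 CPM across the controls and 139, 128 and 116 CPM across the knockdowns. The controls stood close together, inside the range of the knockdown libraries. The log2 fold change was -0.00375 ± 0.10 (SE), with an interval from -0.22 to 0.21 (edgeR adjusted p = 1.00). Exons of Snapin on the opposite strand share 4.13% of the annotated exonic bases of Ilf2, and antisense genes share under 1% of those of Mbnl2 and Hnrnpl.

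Among the genes that act against back-splicing, Adar encodes ADAR1, which turns adenosine into inosine in double-stranded RNA and so loosens paired repeats. It lies on chromosome 3 from 89714469 to 89753455 (plus strand, 39.0 kb). Its level was 214, 217 and 200 CPM across the controls and 192, 206 and 196 CPM across the knockdowns. The highest 2 libraries were controls and the lowest 2 were knockdowns, with an overlap of control replicate 3 and knockdown replicate 2. Adar had a log2 fold change of -0.09 ± 0.09 (SE), with an interval from -0.29 to 0.11 and an unadjusted p of 0.343 (edgeR adjusted p = 1.00). Of its annotated exonic bases, 16.8% (1365 of 8118 in GENCODE M21) also belong to exons of Chrnb2, a nicotinic receptor gene on the opposite strand. Chrnb2 averaged 125 ± 14.8 in controls against 131 ± 5.65 in knockdowns (CPM, SD, n = 3 per group). The libraries keep the strand, but whether counting used it is not stated in those sources, so reads of the shared bases may not be kept apart. RNA editing itself was not measured.

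Adarb1 encodes ADAR2, the enzyme that edits the glutamine codon of the AMPA receptor gene Gria2 in neurons. It lies on chromosome 10 from 77290727 to 77418292 (minus strand, 127.6 kb). Its level was 64.6, 77.3 and 63.7 CPM across the controls and 65.2, 69.7 and 71.0 CPM across the knockdowns. Control replicate 2 was the highest library and the other controls were the lowest, so the knockdown lay inside the control range. Adarb1 had a log2 fold change of 0.00133 ± 0.11 (SE), with an interval from -0.23 to 0.23 (edgeR adjusted p = 1.00). The ratio of Adarb1 to Adar per length was 0.246, 0.295 and 0.262 across the controls and 0.282, 0.283 and 0.287 across the knockdowns. The groups overlapped, with a difference of the mean log2 ratio of 0.09 (exact permutation test, two-sided p = 0.4, adjusted 0.6). Adarb2, which encodes a brain form without known editing activity, was at 56.6, 64.5 and 55.6 CPM across the controls and at 42.6, 57.0 and 75.1 CPM across the knockdowns, so its lowest and highest libraries were both knockdowns.

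Dhx9 encodes a helicase that unwinds paired repeats in transcripts and works with ADAR1. It lies on chromosome 1 from 153455756 to 153487688 (minus strand, 31.9 kb). Its level was 354, 289 and 282 CPM across the controls and 345, 286 and 318 CPM across the knockdowns. Replicate 1 was the highest library in each group. Dhx9 had a log2 fold change of 0.04 ± 0.12 (SE), with an interval from -0.22 to 0.29 (edgeR adjusted p = 1.00).

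**Figure D2:**
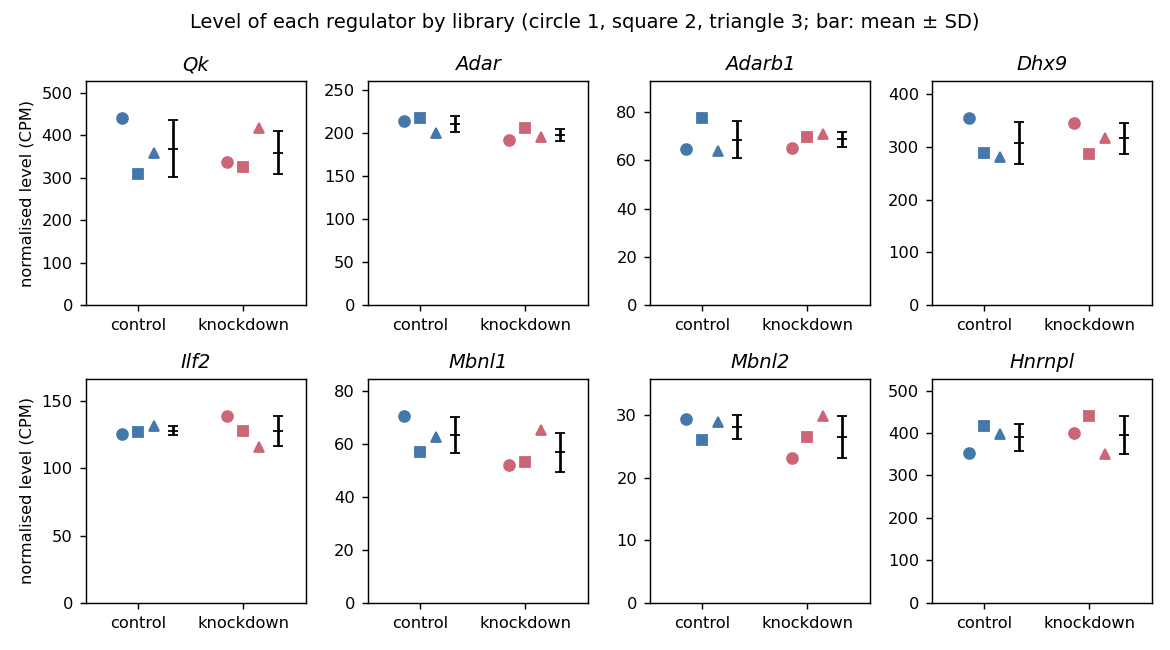
Level of each of the 8 regulators in CPM in the 3 control libraries (blue) and the 3 knockdown libraries (red), with circles for replicate 1, squares for replicate 2 and triangles for replicate 3, and the mean ± SD beside them. The groups overlap in each panel, and Qk has the widest spread, from 308 to 440 CPM.

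Levels of different genes can be set side by side only per length, for which the deposited FPKM (fragments by transcript length and library size) were used. Hnrnpl was the most abundant of the 8, at 95.2 ± 10.6 FPKM (SD over 6 libraries), above 98.1% of the tested genes. Qk followed with 35.3 ± 4.63, Ilf2 with 32.0 ± 2.27 and Dhx9 with 31.9 ± 3.11 FPKM. These 3 could not be ordered beyond their spread, since Qk exceeded Ilf2 in 4 of 6 libraries and Ilf2 exceeded Dhx9 in 3 of 6. Adar came next with 18.5 ± 1.14 FPKM and lay below Dhx9 and above Mbnl1 in 6 of 6 libraries. Mbnl1 was at 6.07 ± 0.735 FPKM and Adarb1 at 5.11 ± 0.436 FPKM, with overlapping ranges and Mbnl1 higher in 5 of 6. Mbnl2 was the least abundant, at 3.29 ± 0.330 FPKM, above 47.9% of the tested genes, and lay below Adarb1 in 6 of 6 libraries.

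**Figure D3:**
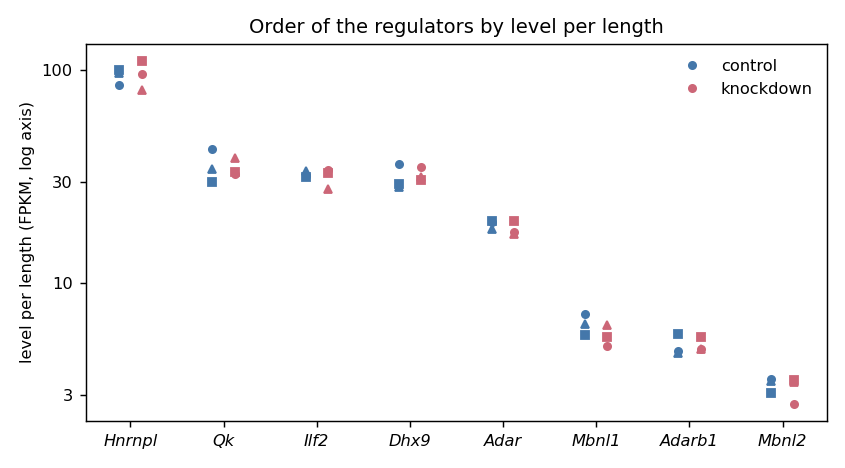
Level per length (FPKM, log axis) of the 8 regulators in each library, ordered by their mean, with control in blue, knockdown in red and symbols by replicate number. Hnrnpl stands alone at 81.2 to 111 FPKM, Qk, Ilf2 and Dhx9 overlap, and Mbnl2 is lowest at 2.72 to 3.55 FPKM.

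The 8 genes differed in how much they varied among libraries. Qk varied by 14.5% over the 6 libraries (coefficient of variation of CPM), and 84.1% of the 10270 genes averaging 10 CPM or more varied less. Mbnl1 varied by 12.1% and Dhx9 by 10.1%, with 72.9% and 58.1% of those genes varying less. Mbnl2 at 9.39% and Hnrnpl at 8.99% lay near the median of 9.28% over those genes. Adarb1 at 7.56%, Ilf2 at 5.82% and Adar at 4.92% were steadier, and only 8.96% of those genes varied less than Adar.

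This spread had a common order in Qk, Mbnl1, Mbnl2, Hnrnpl and Ilf2, described after the values were seen. It was read from TMM-scaled CPM and not examined under other scalings. Control replicate 1 and knockdown replicate 3 were the highest 2 libraries for Qk, Mbnl1 and Mbnl2 and the lowest 2 for Hnrnpl and Ilf2. In control replicate 1 the deviation from the 6-library mean was 0.28 log2 units for Qk, 0.24 for Mbnl1, 0.11 for Mbnl2 and -0.15 for Hnrnpl. In knockdown replicate 3 it was 0.21, 0.13, 0.13 and -0.16 in the same order of genes. For Ilf2 the deviation was -0.03 in control replicate 1 and -0.14 in knockdown replicate 3. As 1 of these libraries is a control and the other a knockdown, the order does not follow the groups. Genes with long spans stood highest against genes with short spans in the same 2 libraries. The median deviation of the 1027 genes spanning at least 159.6 kb minus that of the 1027 genes of at most 5.21 kb (of genes with at least 10 CPM) was 0.12, 0.04 and -0.08 for the controls and -0.34, -0.05 and 0.31 for the knockdowns, on the log2 scale. Mbnl1, Mbnl2 and Qk are among the longer of the 8 genes by span and Hnrnpl and Ilf2 are the shortest, while Adarb1, at 127.6 kb, was low in control replicate 1. The part of gene span in the spread of the 8 genes was not tested.

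**Figure D4:**
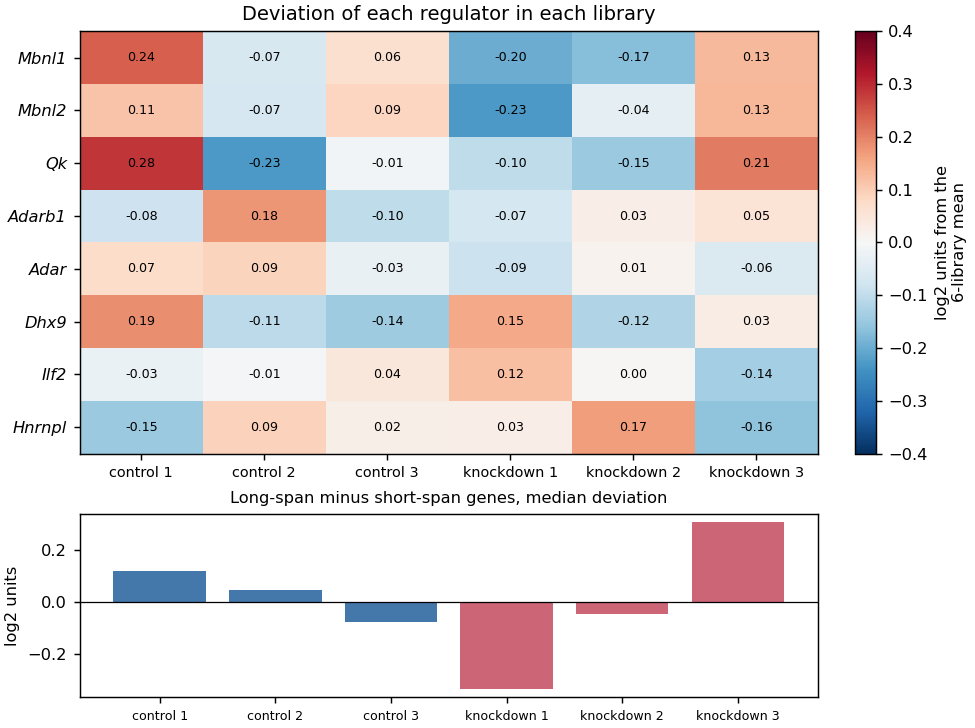
Top, deviation of each regulator from its 6-library mean in log2 units, with red for higher and blue for lower. Bottom, bars for the median deviation of the longest-span genes minus that of the shortest-span genes in each library (log2 units, control blue, knockdown red). Control 1 and knockdown 3 have the 2 tallest positive bars, 0.12 and 0.31, and the highest values of Qk, Mbnl1 and Mbnl2.

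Dhx9 had another order, with control replicate 1 and knockdown replicate 1 highest. The 20 other formation factors listed below summed to 3391 and 3061 CPM in these libraries and to between 2563 and 2690 CPM in the remaining 4. Hnrnpa2b1, which encodes an abundant nuclear RNA-binding protein, was at 594, 298 and 315 CPM across the controls and at 468, 315 and 377 CPM across the knockdowns. Hnrnpm, whose product binds GU-rich intron sites, was at 195, 110 and 100.2 CPM across the controls and at 173, 104 and 124 CPM across the knockdowns. Both were picked for their spread after the values were seen. The ribosomal RNA gene Rn28s1 was also highest in these 2 libraries, with 4.02% and 4.49% of the counts, where the other 4 had between 1.01% and 3.17%, and its part in this spread was not tested.

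In bulk RNA, fewer cells of a type and less RNA per cell cannot be told apart. All 11 tested markers of the oligodendrocyte lineage, cells in which Quaking is abundant, had a log2 fold change below 0 (median -0.27), with 0 of 11 called by edgeR and 2 at an unadjusted p under 0.05. The list summed to 639, 438 and 688 CPM across the controls and to 491, 430 and 529 CPM across the knockdowns. Control replicates 1 and 3 and knockdown replicate 3 were the highest 3 libraries both for this sum and for Qk, and replicate 2 of each group made up the lowest 2 for both. The highest 3 were thus not particular to Qk, since Mbnl1 and Mbnl2 had the same ones, though not the same lowest 2. Markers of dividing cells lay below in 11 of 12 (median -0.27) and those of microglia in 6 of 8 (median -0.29), with 0 called by edgeR and 2 at an unadjusted p under 0.05 in each. Microglial markers summed to only 25.8 to 34.0 CPM, and Aif1 was listed at 0 in every library. Aif1, and Cldn5 of the endothelial list, have copies with a suffix in the count tables, so a count of 0 need not mean no transcript. Their deposited FPKM were low but above 0, at most 0.129 for Aif1 and 0.0828 for Cldn5. Over 12 markers of astrocytes and radial glia, which also express Qk, the median was -0.00379. Their sum had the same highest 3 and lowest 2 libraries as Qk. It was 2107, 1827 and 2204 CPM across the controls and 2038, 2010 and 2173 CPM across the knockdowns. The microglial sum shared the highest 3 libraries but not the lowest 2. Sums of the other cell type lists did not share the highest 3. Markers of neurons had a median of -0.00291 (12 genes), those of dopamine neurons -0.03 (10 genes), those of endothelial and mural cells -0.08 (7 tested, Cldn5 listed at 0) and those of meningeal fibroblasts 0.20 (7 tested, 5 above and 2 below), with 0 called by edgeR in each and 1, in the meningeal list, at an unadjusted p under 0.05. The part of these cells in the values of the 8 genes was not tested.

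The patterns most like each gene over the 6 libraries, by Pearson's r of log2 CPM among 10269 other genes of at least 10 CPM, are given as a description with no test, since the libraries come from 3 cultures and the highest of so many values is high by selection. Qk was most like Frem2 (0.997) and Iqcb1 (0.995), Mbnl1 like AB010352 (0.985) and Hmgn3 (0.980), and Mbnl2 like Rnf115 (0.992) and Ccdc50 (0.989). Hnrnpl was most like Rab35 (0.993) and Dmwd (0.992), and Ilf2 like Trappc4 (0.995) and Tmem250-ps (0.988). Adar was most like Bcorl1 (0.987) and Trp53inp2 (0.966), Adarb1 like Pcdhga12 (0.980) and Klhl18 (0.976), and Dhx9 like Plagl1 (0.999) and Ccdc82 (0.995). None of these genes was itself among the 8 or in the pathway lists.

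The wider pathway was described with 5 lists, of which 110 different genes were tested and 0 were called by edgeR in either direction, with 0 at an unadjusted p under 0.05. DESeq2 and limma voom also called 0. The groups did not overlap in 8 of the 110 genes, beside 5.20% of all tested genes.

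Of 18 tested other formation factors, 5 had a fold change above 0 and 13 one below 0 (median log2 value -0.03). The smallest p belonged to Hnrnpa1, which encodes a splicing repressor, with -0.25 ± 0.12 (SE, edgeR unadjusted p = 0.0656), and to Hnrnpll, given above. Sfpq, a paraspeckle protein picked after its values were seen, had -0.06 ± 0.15. Srsf1 was listed at 0 counts in every library while its deposited FPKM ran from 13.5 to 17.9. It has copies with a suffix in the count tables, as have 11 other listed genes. None of the 8 regulators has such a copy.

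Genes of the later life of circular RNAs, covering export, decay, sensing and translation, lay above the control in 7 and below in 20 of 27 tested, with a median of -0.03. Igf2bp1, which encodes a messenger RNA-binding protein of growing axons, had the smallest p, with 15.1, 14.9 and 14.8 CPM across the controls and 13.4, 12.1 and 11.7 CPM across the knockdowns. Its groups did not overlap, and its log2 fold change was -0.26 ± 0.12 (SE, edgeR unadjusted p = 0.0514, adjusted p = 1.00). Ago2, the Argonaute that cuts targets of small RNAs, had -0.19 ± 0.10 and groups that did not overlap. Eif2ak2, which encodes the kinase PKR that binds short duplexes of circular RNAs, had -0.04 ± 0.22 and was also picked after its values were seen.

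The core spliceosome list lay above in 10 and below in 16 of 26 tested genes, with a median of -0.05, where U2af1, which encodes a subunit that reads the end of the intron, had -0.21 ± 0.14 (SE) and Prpf31 had -0.15 ± 0.10. Host genes of brain circular RNAs lay above in 11 and below in 17 of 28, with a median of -0.03, where Zfp609 had -0.20 ± 0.11 and Rmst had -0.16 ± 0.10. These are gene-level values and do not measure the circles. Their sum was highest in control replicate 1 and knockdown replicate 3, at 5996 and 5970 CPM, the libraries in which Qk was highest, and between 5229 and 5682 CPM in the other 4.

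The list of double-stranded RNA and interferon response, which bears on Adar as an interferon-inducible gene, held 11 tested of 18 genes, 4 above and 7 below, with a median of -0.06. Its whole sum was only 80.3 to 87.5 CPM in the control and 75.1 to 83.1 CPM in the knockdown. Oasl2, a classic interferon target, was at 1.22, 0.455 and 0.468 CPM across the controls and at 0.413, 0.435 and 0.406 CPM across the knockdowns (log2 fold change -0.79 ± 0.46, SE). Control replicate 1 stood above the other 5 libraries, which lay close together. Stat2, which encodes a signal transducer of the interferon receptor, had -0.15 ± 0.12.

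**Figure D5:**
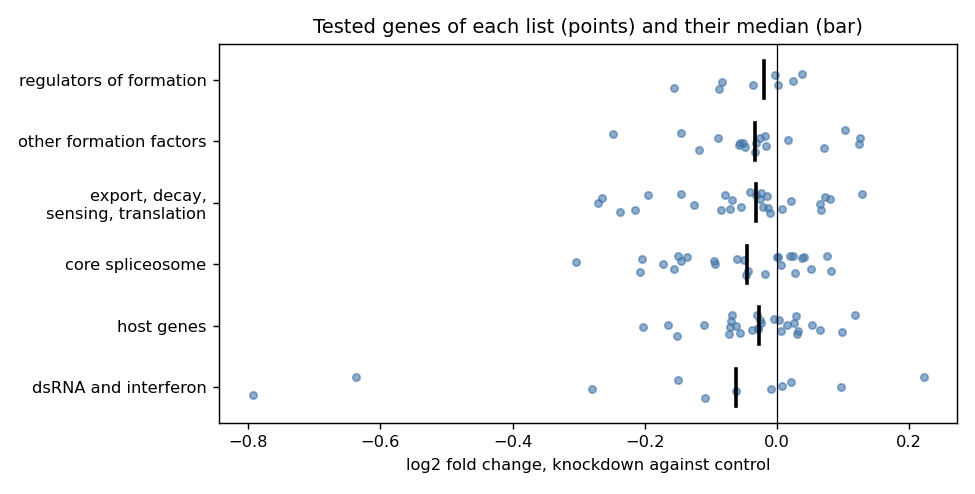
Log2 fold change of knockdown against control for each tested gene of the 8 regulators and of the 5 pathway lists (points), with the median of each list as a bar. Medians lie between -0.06 and -0.02, and the point farthest from 0 is Oasl2 at -0.79.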

How the data were processed

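Ribosomal RNA-depleted, directional libraries were sequenced as pairs of 150 bases, and the labels' processing fields name GRCm38 (mm10), Cufflinks 2.2.1 and bcl2fastq 2.20, per the submitters' processing notes. Each library has a deposited table of whole-number read counts per gene and a separate one of FPKM values, both made by the authors. The aligner, the counter and its strand setting are not stated in the labels or headers. The FPKM totals differ between libraries (409981 to 981958), so FPKM served mainly for order and for ratios of genes within a library. Means, SD and ranges over libraries, and limma on log2 FPKM as an alternative, used the deposited FPKM without rescaling.

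From the counts, genes were kept by filterByExpr (17439 of 42396), scaled by TMM and tested with edgeR 4.0.16 (glmQLFit, glmQLFTest, R 4.3.3) with Benjamini-Hochberg adjustment over all tested genes at 0.05. Standard errors come from the fitted information matrix and quasi-dispersion. Ratios of partner genes were compared by exact permutation over 20 arrangements, with p adjusted over 3 ratios, 1 of which is not reported here. DESeq2 1.42.0, limma 3.58.1, other scalings and filters, limma on log2 FPKM, the replicate block and leaving out each library were alternatives. The script was checked on simulated data.

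The 8 genes and all lists were chosen with earlier results of these data known. Named were the 8 genes, their paralogues or partners, Rmst, the 2 most alike genes of each, and the 2 genes with the smallest p of each pathway list; others are said to be picked after their values were seen. The comparison of span classes was added after the data were seen. Exon overlaps used GENCODE M21, and promoter windows came from RefSeq GRCm38.p6. Protein sequences were not used here.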

Additional observations from a re-analysis of the deposited data

How the results depend on the processing

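Over 18 alternatives, 0 of the 8 genes and 0 listed pathway genes were called in each. Over all genes 0 were called, except 11 with no filter on low counts (5 higher, 6 lower, of 28463) and 1, Gm24019, with DESeq2 (of 28457). Unadjusted p under 0.05 was reached by 191 genes in edgeR, 175 in DESeq2, 192 in limma voom, 634 to 1073 in limma on log2 FPKM and 198 to 451 when 1 library was left out.

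The sign of the log2 fold change of Ilf2 turned with library totals (0.00102), no filter (0.00405) and DESeq2 (0.000928); the cause was not tested. Leaving out each library in turn gave log2 fold changes from -0.14 to 0.11 for Qk, -0.0398 to 0.11 for Adarb1, -0.0309 to 0.15 for Dhx9, -0.0685 to 0.0696 for Ilf2, -0.17 to 0.00412 for Mbnl2 and -0.0576 to 0.12 for Hnrnpl, so these signs rest on single libraries. Adar ran from -0.12 to -0.05 and Mbnl1 from -0.26 to -0.07, with no change of sign. The log2 ratio difference of Mbnl2 to Mbnl1 ran from 0.04 to 0.15 and that of Adarb1 to Adar from 0.03 to 0.16.

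Deviations of libraries with the same replicate number correlated at 0.219, 0.233 and 0.0363, so the numbers were not taken as pairs. The libraries of replicates 1 and 2, 4 of 6, correlated best with their own number, and those of replicate 3 did not. The replicate block called 0 genes (258 at an unadjusted p under 0.05) and gave Mbnl1 a log2 fold change of -0.16 in edgeR. The comparison between replicate numbers and its 3 alternatives were therefore not run. Mbnl3 and Oasl2 are limited by their counts.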
